A study of Mus musculus with 4 samples.

Results

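The middle block of mouse chromosome 9 holds 118 gene names read by 185 probes of an expression array, of 28146 gene names and 41174 probes in all. It is defined by position alone: every non-control probe that the array's own annotation places on chr9:83287605-98463646 of the mm9 build, a stretch of 15.18 Mb. Its bounds were drawn after the difference between the lines along the chromosome had been seen, so the differences given here describe the block and test nothing about it. Of its genes, 64 had a probe well above background on each of the 2 arrays of EV-50, of shGR-19 or of both lines, and these kept genes carry the values that follow, each through its brightest probe. The 13 Mb before the block, from 70 to 83 Mb (67 kept genes), and the 16 Mb after it, from 99 to 115 Mb (198 kept genes), serve as contrast.

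RNA came from stable lines of EPH-4, a non-malignant mouse mammary epithelial line that immortalized spontaneously. EV-50 carries an empty H1-2 vector and shGR-19 an shRNA vector against the glucocorticoid receptor (GR, gene Nr3c1), both with a puromycin marker and both grown serum-free in 2 µg/ml puromycin. The labels describe GR as normal in EV-50 and depleted in shGR-19, and the comparison asks which genes differ when GR that has no hormone bound is depleted. Each line is a single clonal isolate measured on 2 arrays of 1 slide, so differences between clones and effects of the shRNA cannot be told apart, and the spread between arrays may be technical.

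GR is a steroid-activated transcription factor that binds DNA mainly as a dimer and has also been described in partnership with GABP, an ETS-family factor. Genes that lie next to each other on a chromosome are copied and packaged together but usually serve unrelated tasks, and this block is of that kind. Its members include kinases that guard DNA replication and mitosis (Atr, Ttk), an enzyme that makes adenosine outside the cell (Nt5e) and membrane phospholipid scramblases (Plscr1, Plscr2). Others are a collagen-modifying enzyme (Plod2), an enhancer of procollagen processing (Pcolce2), a lysosomal protease (Ctsh) and a sodium pump subunit (Atp1b3).

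The authors deposited the data in 2 forms that differ. In the scanner files, values here are log2 signal after subtraction of each array's 75th percentile. In the value table, made by the authors in GeneSpring, log2 values are centred probe by probe on the median over the 4 samples. The scanner arrays labelled replicate 1, of EV-50 and of shGR-19, were nearly alike, whereas the columns of the same names in the value table differed as much as those of replicate 2. Nr3c1 shows it: its brightest probe read 1.73 and 1.85 on the EV-50 scanner arrays and 1.39 and -0.11 on the shGR-19 ones, while the value table gave 0.98 and 0.95 against -0.95 and -0.98, a difference of -1.94 (standard error 0.048). Which arrays the files labelled replicate 1 were read from could not be checked. Each scanner value of an EV-50 or shGR-19 array labelled replicate 1, and each median over all 4 scanner arrays, rests on its label. For EV-50 replicate 2 minus replicate 1 the middle range over genes outside the block was -0.32 to 0.30 in the scanner files. In the value table it was -0.11 to 0.046. Results are therefore given for both forms. For the block and for some members, scanner results are also given without the arrays labelled replicate 1. The epithelial label was matched by its markers, with 7 of 8 luminal and 3 of 3 basal genes well above background on all 4 arrays. In the value table the basal keratin gene Krt14 was lower by a log2 difference of -1.13 at an adjusted p of 0.0033 (limma). Of 7 fibroblast genes only Pdgfrb was above background on all 4 arrays, and Dcn was above background on none. The log2 of the summed signal of the 7, which the brightest genes dominate, was -1.33 and 1.78 on the EV-50 arrays. On the shGR-19 arrays it was -1.67 and 4.20. The fibroblast genes Col1a1, Pdgfrb and Pdgfra were higher in the value table, by 5.57, 2.03 and 1.16, each at an adjusted p below 0.01. The part of these markers in the differences of the block was not tested.

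Most genes of the block were lower in shGR-19 by a modest amount. Of the 64 genes, 52 were lower and 12 higher in the value table. The median log2 difference, shGR-19 minus EV-50 as throughout, was -0.46, and the middle range over genes ran from -0.80 to -0.11. Across all 16769 kept genes 47.8% were lower. The 16705 kept genes outside the block had a median of 0.019, and the rest of chromosome 9 (868 genes) one of -0.020. In the stretch before the block the median was 0.097 with 26 of 67 genes lower, and in the stretch after it -0.18 with 137 of 198 lower. The stretch after the block thus leaned the same way, by less, and that before it did not.

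Few members accounted for large differences, and the shift was spread over many small ones. Of the 64 genes, 39 were lower by 0.2 to 1 on the log2 scale, 7 by more than 1, 13 lay within 0.2 of 0 and 5 were higher by more than 0.2. In 47 members both shGR-19 columns lay below both EV-50 columns (34.1% of all kept genes did so), and in 6 both lay above (37.6% of all). With limma and Benjamini-Hochberg adjustment over the whole array, 22 members were lower at an adjusted p below 0.01 (6.51% of all kept genes) and 2 were higher (6.12% of all). With the further demand of a 2-fold difference, 6 members were called lower (2.7% of all) and 2 higher (2.17% of all). Dropping any single column leaves 1 column in a line, and counts from such fits are not given. The rule chose the block on this contrast, so these counts are not evidence for it.

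**Figure D1:**
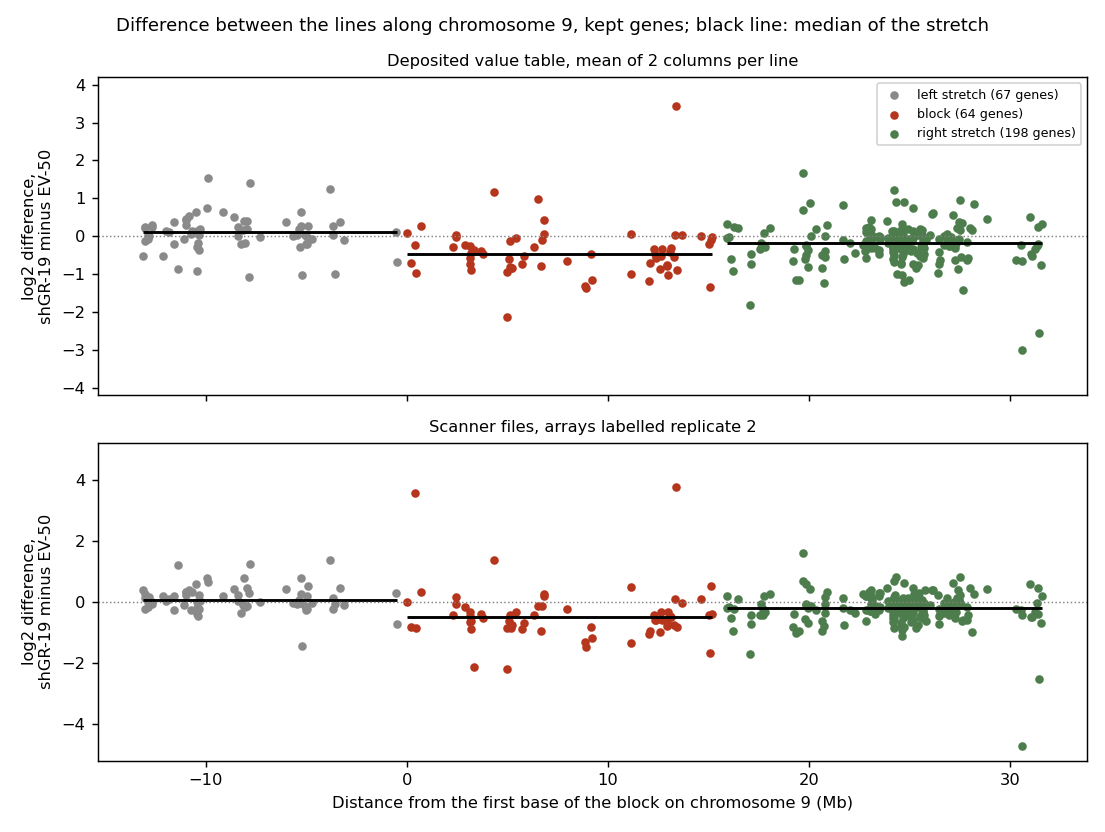
Log2 difference between shGR-19 and EV-50 (vertical axis) of each kept gene against its distance in Mb from the first base of the block (horizontal axis), from the value table (top) and from the scanner arrays labelled replicate 2 (bottom); black lines are medians. The 64 red points of the block sit around a median of -0.46 in the top panel and -0.50 in the bottom one, below the grey stretch before it, and ENSMUST00000062899, at 3.43, is the highest red point of the top panel.

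The lower values were not even along the block. The first 3 Mb held 9 kept genes with a median of -0.24, and the next 3 Mb 19 genes with a median of -0.59, of which 18 were lower. The third stretch of 3 Mb, with 9 genes, had a median of -0.29. From 9 to 12 Mb only 4 genes were kept, with a median of -0.74, and from 12 to 15 Mb the median over 19 genes was -0.51. The last 4 genes, beyond 15 Mb, were all lower, with a median of -0.15. The longest unbroken run of lower neighbours spanned 14 genes, from Chst2 to Zbtb38.

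At the edges the values did not step. Just outside the start, Myo6, Irak1bp1, Phip and Hmgn3 differed by -0.11, 0.097, -0.69 and -0.0080 in the value table. Just inside it, Lca5, Sh3bgrl2, Elovl4 and Ttk differed by 0.096, -0.71, -0.25 and -0.97. At the other end, Nmnat3, Rbp2 and 4930579K19Rik, inside, differed by -0.20, -0.11 and -0.028, and Copb2, Mrps22, Prr23a3 and Foxl2, the first outside, by -0.41, -0.36, -0.56 and 0.35. Phip, Copb2 and Mrps22, which lie outside, were thus further below 0 than Lca5, Rbp2 or 4930579K19Rik inside.

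In the scanner files the block was lower too, and the array labelled shGR-19 replicate 2 decided it. Over all 4 arrays the median difference was -0.25 with 50 of 64 genes lower, against 0.075 before the block, -0.097 after it and 0.015 over all kept genes outside. No member was called by limma (0.0% of all kept genes were). Prss35 read -3.88 and -3.36 for EV-50 and -7.35 and -5.47 for shGR-19, and BC028807 differed by 0.82. Both were near background, and they were picked out after their values were seen. Both arrays labelled shGR-19 lay below both labelled EV-50 in 11 members (6.23% of all kept genes) and above in 6 (12.2% of all). Between the arrays labelled replicate 2 the median was -0.50 with 52 of 64 genes lower, close to the -0.47 between the same columns of the table. For the arrays labelled replicate 1 it was 0.038, with 23 of 64 lower.

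Comparing single arrays shows where the 2 forms part. In the value table every pairing of an shGR-19 with an EV-50 column gave a block median between -0.55 and -0.45, and the 2 columns of a line differed by -0.051 (EV-50) and -0.029 (shGR-19). In the scanner files the array labelled shGR-19 replicate 1 differed from the arrays labelled EV-50 by 0.038 and 0.014, and the array labelled shGR-19 replicate 2 by -0.35 and -0.50. That array also differed by -0.35 from the other array of its own label over the block, more than the -0.25 between the lines. With the array labelled shGR-19 replicate 2 left out, the block median was 0.013. Over the stretch before the block, no pairing of lines moved below 0 in either form.

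**Figure D2:**
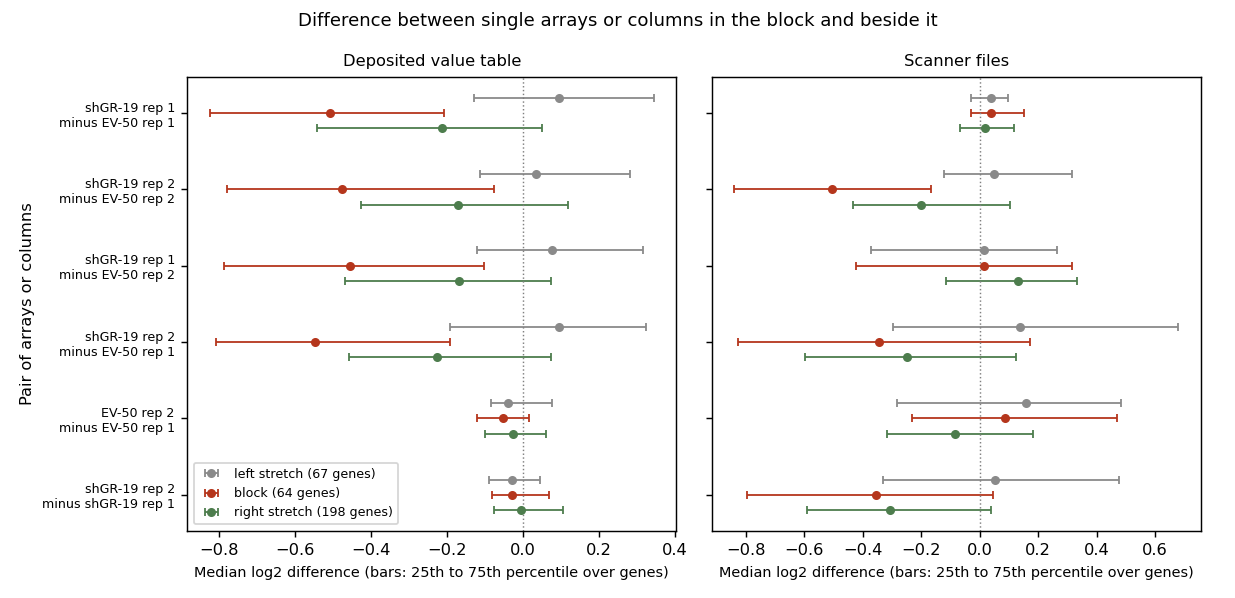
Median log2 difference (horizontal axis) over the kept genes of the block and of the stretches before (left) and after (right) it, for each pair of columns of the value table and of scanner arrays (vertical axis); bars run from the 25th to the 75th percentile over genes. The 4 block medians between lines lie from -0.55 to -0.45 in the value table, while in the scanner files the block median lies below 0 only in pairs with shGR-19 replicate 2.

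In all, 6 members were called lower in the value table, of which 5 are described here. Nt5e encodes the ecto-nucleotidase that turns extracellular AMP into adenosine, and its probe lies at chr9:88266616-88266675. Its value was 1.096 and 1.05 in the EV-50 columns and -1.06 and -1.05 in the shGR-19 columns, a difference of -2.13 (standard error 0.049). Its scanner values were 1.07 and 3.91 for EV-50 and 1.24 and 1.72 for shGR-19. The high EV-50 reading came from replicate 2 alone, and the other 3 arrays lay within 0.66 of each other. Without EV-50 replicate 2 the scanner difference was 0.42, and between the arrays labelled replicate 2 it was -2.19. A second kept probe of Nt5e gave -2.20 in the value table.

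Plscr1 and Plscr2, neighbours from the scramblase family of membrane proteins, were among the next lowest. Plscr1, which is also known as an interferon-induced gene, had values of 0.72 and 0.62 in EV-50 and -0.62 and -0.70 in shGR-19, a difference of -1.33 (standard error 0.067). Plscr2 differed by -1.37 (standard error 0.052), from 0.67 and 0.67 to -0.67 and -0.73. The columns of the lines did not overlap for either gene, and further probes gave -1.36 and -1.31 for Plscr1 and -1.40 for Plscr2. Cross-detection between the probes of these related genes was not examined. In the scanner files Plscr1 read 3.79 and 4.09 for EV-50 and 3.69 and 2.79 for shGR-19, so that only the last array stood apart. Plscr4, another family member in the block, was not well above background on any array.

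Plod2, a lysyl hydroxylase that prepares collagen for cross-linking, differed by -1.15 (standard error 0.060), and Chst2, a sulfotransferase of cell-surface sugars, by -1.18 (standard error 0.085). Plod2 read 1.53 and 2.12 on the EV-50 arrays and 1.42 and 0.94 on the shGR-19 arrays, and both shGR-19 arrays lay below both EV-50 arrays. Chst2 read -1.20 and 0.59 against -1.20 and -0.44, with the arrays labelled replicate 1 equal, and differed by 0.38 without EV-50 replicate 2. Between the arrays labelled replicate 2 Chst2 differed by -1.04.

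**Figure D3:**
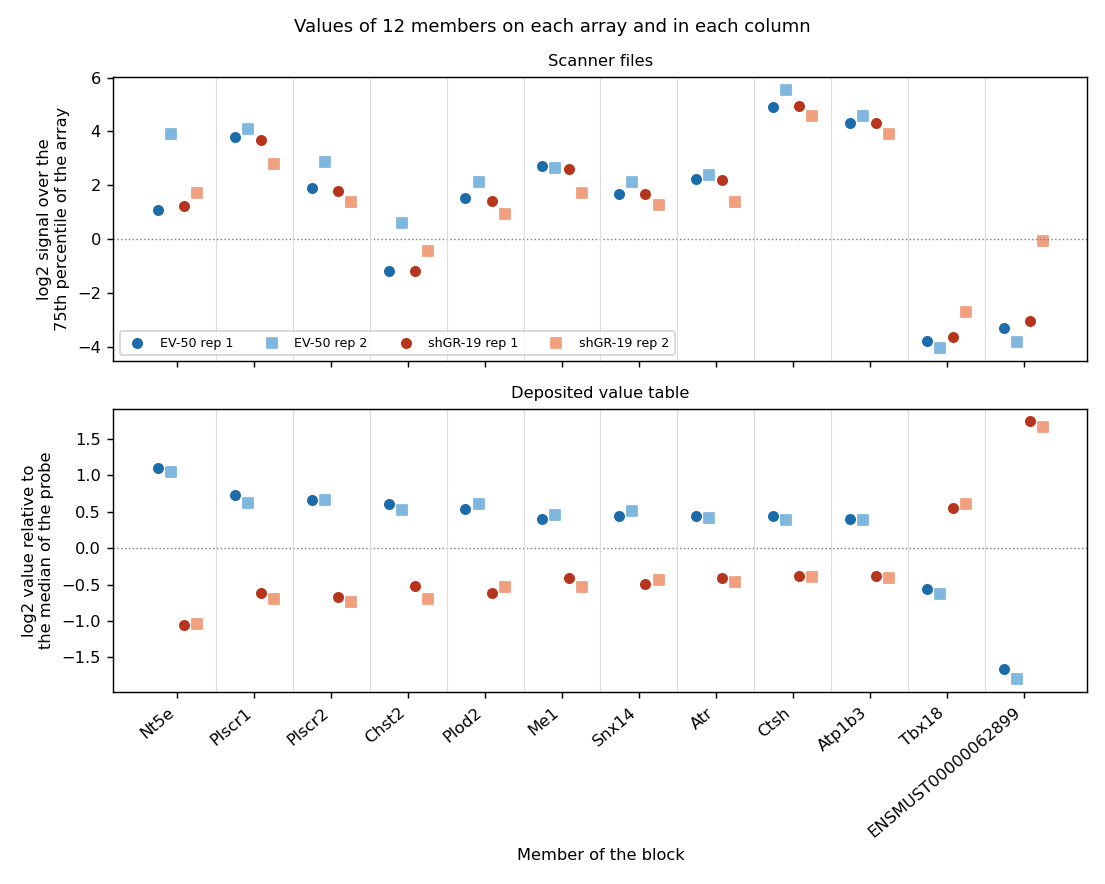
Values of 12 members on each scanner array (top, log2 signal over the array's 75th percentile) and in each column of the value table (bottom, log2 around each probe's median); circles are replicate 1 and squares replicate 2, blue EV-50 and red shGR-19. In the bottom panel the columns of the lines never overlap, as in Nt5e with 1.096 and 1.05 against -1.06 and -1.05, whereas in the top panel the circles of both lines nearly coincide.

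Of 9 kept genes of genome maintenance, RNA handling and chromatin, 4 fell at an adjusted p below 0.01 without reaching 2-fold, against 34.4% of the members of the block and 6.51% of all kept genes. All 9 had values below 0, with a median of -0.61, where 81.2% of the members of the block did. These counts describe the list and set it apart from the block in no tested way. Atr, the kinase that answers stalled replication, was 0.44 and 0.41 in EV-50 and -0.41 and -0.47 in shGR-19, a difference of -0.87 (standard error 0.051). Other Atr probes gave -0.96 and -1.43. Tfdp2, a partner of the E2F cell cycle factors, differed by -0.76, U2surp, a splicing protein bound to the U2 particle, by -0.72, and Syncrip, an RNA-binding protein, by -0.61. On the scanner arrays Atr read 2.23 and 2.36 for EV-50 against 2.19 and 1.39 for shGR-19, so that both shGR-19 arrays lay below both EV-50 arrays, the first of them by little. Without that last array the scanner differences of Tfdp2, U2surp and Syncrip were 0.18, 0.17 and 0.28. Between the arrays labelled replicate 2 they were -0.81, -0.94 and -0.64.

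The other 5 of these genes did not pass the test. Ttk, a kinase of the spindle checkpoint, had the lowest value of the list, -0.97, but its shGR-19 columns were apart (-0.38 and -0.74), and its standard error was 0.15. Zbtb38, which binds methylated DNA, differed by -0.56, Xrn1, the cytoplasmic exonuclease that degrades decapped mRNA, by -0.51, and Rnf7, a RING subunit of cullin ubiquitin ligases, by -0.41. Morf4l1, a chromatin protein, was least moved at -0.11.

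Of 10 kept metabolic genes 4 fell at an adjusted p below 0.01 in limma, near the 34.4% of the whole block, against 6.51% of all kept genes. Values below 0 were found in 9, against 81.2% of the members of the block and 47.8% of all kept genes. The median of the list, -0.46, was close to that of the block. Besides Nt5e and Chst2, which the list also holds, Me1 and Pgm3 passed. Me1, the cytosolic malic enzyme that supplies NADPH, was 0.41 and 0.46 in EV-50 and -0.41 and -0.54 in shGR-19, a difference of -0.91 (standard error 0.070). The scanner arrays read 2.70 and 2.63 against 2.60 and 1.72, in the same order. Pgm3, an enzyme on the path to UDP-N-acetylglucosamine, differed by -0.59 (standard error 0.055). Mthfs of folate metabolism, the reductase Cyb5r4, Nmnat3 of NAD synthesis and Rbp2, which was near background, differed by -0.52, -0.39, -0.20 and -0.11 and did not pass. Bckdhb, a subunit of the dehydrogenase that breaks down branched-chain amino acids, was the exception at 0.27, and did not pass either.

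Elovl4, an elongase of very long fatty acids, went opposite ways in the 2 forms. Its value-table difference was -0.25. On the scanner arrays it read -5.40 and -7.89 for EV-50, where it was not well above background. For shGR-19 it read -4.48 and -4.35, where it was. The scanner difference of 2.23 on the log2 scale was 0.98 without EV-50 replicate 2 and 0.32 with normexp background correction. Its size thus rests on 1 array and on the background correction, and no fold is given for it. Elovl4 was kept through the shGR-19 arrays alone. Gk5, also of the list, had no kept probe.

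The remaining lists were small, and counts of genes that passed only describe them. At an adjusted p below 0.01 in limma, 34.4% of the members of the block and 6.51% of all kept genes were lower. Of 3 kept vesicle traffic genes Snx14, a sorting nexin, and Dop1a (listed as Dopey1) were lower at an adjusted p below 0.01 in limma. They differed by -0.94 (standard error 0.055) and -0.73 (standard error 0.052), while Tmed3, a cargo-sorting protein of the early secretory path, differed by -0.29. Of 3 kept transport genes Atp1b3, a beta subunit of the sodium-potassium pump, was lower at -0.79 (standard error 0.046), with further probes at -0.99 and -0.81. The scanner values were 4.30 and 4.56 for EV-50 and 4.29 and 3.90 for shGR-19. The cation channel Trpc1 and the mitochondrial carrier Slc25a36 differed by -0.46 and 0.023 and did not pass. Ctsh, the lysosomal protease cathepsin H, differed by -0.80 (standard error 0.050) and joined Plod2 as the members that passed among 6 kept genes for matrix and cell-surface proteins. Ctsh read 4.91 and 5.54 for EV-50 and 4.93 and 4.58 for shGR-19, where only the last array lay below both of EV-50. Pcolce2, Prss35, Tpbg and Adamts7 of that list differed by -0.34, -0.36, 0.033 and 0.42.

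None of 4 kept signalling and cytoskeleton genes passed the test in limma, where 34.4% of the members of the block and 6.51% of all kept genes passed as lower. Pls1, an actin-bundling protein, Rasa2, which switches Ras off, and Ibtk differed by -0.58, -0.33 and -0.28. Rasgrf1, which activates Ras, differed by 0.99 with a standard error of 0.34 and was near background, on 3 of 4 arrays above it. The only BCL2A1 gene that the array places in the block, Bcl2a1b, was above background on no array. All lists were drawn up with earlier results of these data known, and over all kept genes outside the block the median was 0.019.

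**Figure D4:**
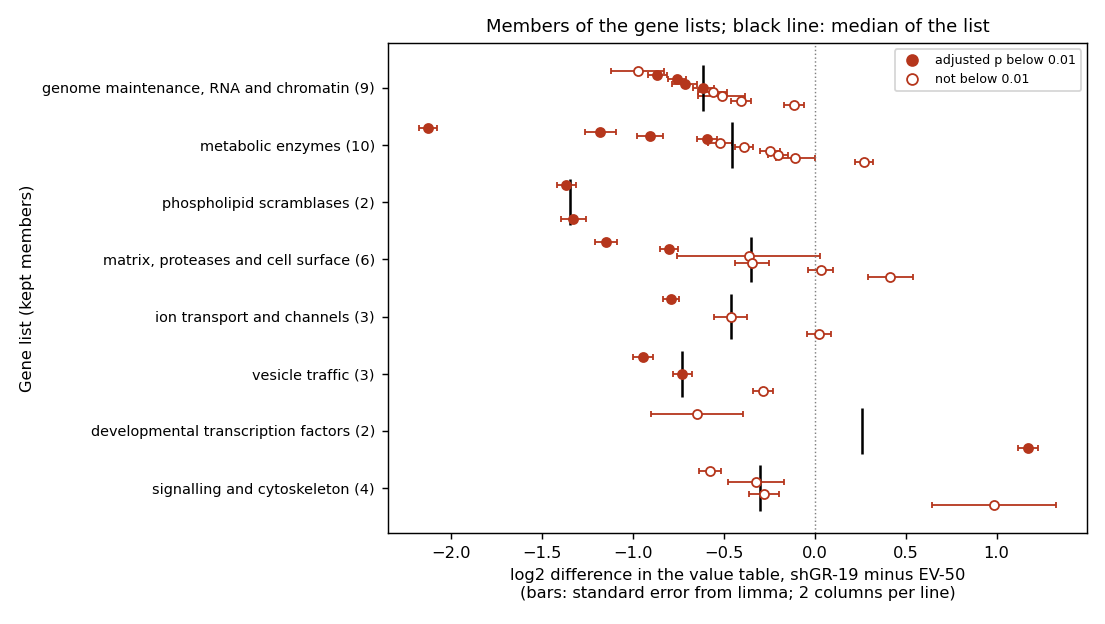
Log2 difference in the value table (horizontal axis) of every kept member of each gene list (vertical axis, number of kept genes in brackets); bars are standard errors from limma and filled points passed an adjusted p of 0.01. All 9 genome maintenance, RNA and chromatin genes lie below 0, around a median of -0.61, and Tbx18 at 1.17 is the single filled point above 0.

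Outside the lists, 6 further members were lower at an adjusted p below 0.01 in limma, as were 34.4% of all members and 6.51% of all kept genes. These were Zfp949 (-0.85), a zinc finger gene, Pxylp1 (-0.90, listed as Acpl2), a phosphatase of proteoglycan synthesis, Sh3bgrl2 (-0.71), the RIKEN transcript 9430037G07Rik (-0.84) and the transcripts TC1654900 (-0.80) and ENSMUST00000098484 (-0.73). Dipk2a (listed as 1190002N15Rik) differed by -0.998 with a standard error of 0.11 and did not pass, and AK078587 by -1.02 with a standard error of 0.29.

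A pair of members went the other way and were called higher. Tbx18, a T-box transcription factor of embryonic development, was -0.56 and -0.63 in EV-50 and 0.56 and 0.60 in shGR-19, a difference of 1.17 (standard error 0.056). It lies between Cep162 and Nt5e, which differed by -0.46 and -2.13. Its scanner values were -3.78 and -4.05 for EV-50 and -3.65 and -2.70 for shGR-19, with both shGR-19 arrays above both EV-50 arrays. Zic4, the other kept developmental transcription factor, differed by -0.65 (standard error 0.25) and did not pass.

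The probe ENSMUST00000062899, at chr9:96647906-96648916, had the largest difference of the block, 3.43 (standard error 0.076). It was -1.66 and -1.80 in EV-50 and 1.74 and 1.66 in shGR-19. The array's description assigns it to the RIKEN gene E030011O05, yet the probe listed under E030011O05Rik itself differed by 0.019. On the scanner arrays it read -3.30, -3.83 and -3.05 on the first 3 arrays and -0.076 on that labelled shGR-19 replicate 2, so that a single array carried the difference there. Its neighbours Zbtb38 and Pxylp1 were lower, at -0.56 and -0.90.

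Different probes of a gene mostly gave the same direction. Of 24 members with more than 1 kept probe (61 probes in all), 21 had all probes on the same side of 0 in the value table, and the median distance between the highest and the lowest probe of a gene was 0.20. The exceptions were Lca5, Tbc1d2b and Tpbg, whose brightest probes lay near 0 (0.096, 0.059 and 0.033) and whose lowest other probes gave -0.59, -0.66 and -0.49. Probes of a gene share the same RNA and are not replicates.

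The block held 4.22 kept genes per Mb, against 5.15 before it and 12.4 after it. Of its 185 probes 54.6% were kept, against 52.6% before it, 68.0% after it and 59.4% of all probes outside the block. Of the 54 genes not kept, 45 were well above background on no array, among them the neural genes Zic1 and Clstn2, and 9 on some arrays but not on both of either line. Of the 64 kept genes 57 were well above background on all 4 arrays; their value-table median was -0.51, with 47 lower. The filter keeps a gene through the line in which it is brighter, so the kept genes do not stand for the 118.

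RefSeq promoter windows (GRCm38.p6) were at hand for 50 of the 64 kept genes, in 61 windows of 300 bases from 250 before to 50 after a start. They were searched on both strands for the GR half-site AGAACA, for CCGGAAG, the core that ETS factors such as GABP bind, and for the interferon-stimulated response element. No matches of different motifs overlapped in these windows. The half-site was in 8 windows (13.1%), against 19% of all 32851 windows and 13.2% of the 13992 windows of other kept genes. The ETS core was in 12 (19.7%), against 8.86% of all and 15.5% of those of other kept genes. The interferon-stimulated response element was in none, against 3.44% and 2.84%. Over the 250 bases before the start, the windows of the block had a median GC content of 61.2% and 16 CpG pairs, those of other kept genes 58.8% and 14, and all windows 52.4% and 6. A match describes the letters of a window and does not show that a factor binds there.

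The 250 bases before the start are printed for the lowest member (Nt5e) and the lowest scramblase with a window (Plscr1), and for members that hold a motif. Capitals mark the half-site or the ETS core, here read as its reverse complement, TGTTCT or CTTCCGG. Sh3bgrl2 (chr9:83548088-83548337, plus strand) holds both, Snx14 (chr9:88438930-88439179, minus strand) the ETS core, and Chst2 (chr9:95407271-95407520, minus strand) the half-site. Nt5e (chr9:88327359-88327608) and Plscr1 (chr9:92249944-92250193), both on the plus strand, hold none of the searched motifs, so that members with and without a motif were lower.
Nt5e: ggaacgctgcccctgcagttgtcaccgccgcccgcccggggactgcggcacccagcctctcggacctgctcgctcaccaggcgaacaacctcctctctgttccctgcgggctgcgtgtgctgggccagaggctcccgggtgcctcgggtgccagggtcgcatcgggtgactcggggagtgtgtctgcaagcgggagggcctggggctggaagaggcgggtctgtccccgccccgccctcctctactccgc
Plscr1: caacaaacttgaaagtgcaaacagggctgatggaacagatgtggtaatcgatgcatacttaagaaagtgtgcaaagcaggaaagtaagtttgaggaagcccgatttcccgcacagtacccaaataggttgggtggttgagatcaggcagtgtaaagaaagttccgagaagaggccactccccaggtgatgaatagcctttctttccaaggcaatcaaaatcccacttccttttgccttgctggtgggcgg
Sh3bgrl2: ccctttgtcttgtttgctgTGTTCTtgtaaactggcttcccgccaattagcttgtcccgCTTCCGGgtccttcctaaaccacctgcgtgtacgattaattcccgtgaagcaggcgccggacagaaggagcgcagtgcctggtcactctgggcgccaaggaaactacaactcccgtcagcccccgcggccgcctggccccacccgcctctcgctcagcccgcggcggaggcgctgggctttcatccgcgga
Snx14: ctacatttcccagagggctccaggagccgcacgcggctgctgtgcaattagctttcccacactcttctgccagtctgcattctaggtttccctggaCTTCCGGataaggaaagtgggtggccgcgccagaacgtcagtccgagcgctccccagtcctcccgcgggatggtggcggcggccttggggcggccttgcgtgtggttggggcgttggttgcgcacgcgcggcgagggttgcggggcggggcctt
Chst2: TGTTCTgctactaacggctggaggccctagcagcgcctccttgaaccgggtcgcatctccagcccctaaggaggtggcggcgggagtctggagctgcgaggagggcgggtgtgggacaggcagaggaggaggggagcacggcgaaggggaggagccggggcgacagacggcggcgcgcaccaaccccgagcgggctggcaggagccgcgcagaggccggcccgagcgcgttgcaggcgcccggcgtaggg

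The window of Plscr1 has 5 CpG pairs and a GC content of 47.2%, and those of the other 4 have between 21 and 27 CpG pairs and between 62.8% and 72.8% GC. Members whose 250 bases hold the ETS core ranged in the value table from Snx14 (-0.94) and Atp1b3 (-0.79) to E030011O05Rik (0.019).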

How the data were processed

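From each line, EV-50 and shGR-19, 300 ng of RNA per array was labelled with Cy3 for Agilent mouse arrays, 2 a line. The authors deposited the spot intensity of each array, background-subtracted by Agilent Feature Extraction 10.5.1.1 and not scaled between arrays. A GeneSpring table of log2 values, centred on each probe's median, was deposited too. Its block median between the columns labelled replicate 2, -0.47, lay near the -0.50 between the scanner arrays of that label. Elovl4, near background, departed from this, at -0.23 in the value table and 3.54 on those scanner arrays. A match of the 2 forms probe by probe was not examined. How the columns of the value table were scaled is not given in the sources used here. Its column medians were 0.076 and 0.038 (EV-50) and -0.056 and -0.063 (shGR-19).

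Control spots and the 74 to 139 outlier spots per array were left out, log2 signal minus the array's 75th percentile was taken, and replicate spots were averaged. A probe was kept if both arrays of either line were well above background (23290 to 27358 of 41174 probes per array were above background, and none was saturated). Both forms were fitted with limma 3.58.1 in R 4.3.3 (lmFit, eBayes, Benjamini-Hochberg over all kept probes), checked on simulated data, and called at an adjusted p below 0.01 and more than 2-fold, or at any fold where stated. An exact permutation of 2 against 2 arrays cannot go below p = 0.333. The number of arrays limits the precision.

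Symbols were updated through RefSeq, which held 55 of the 64 kept genes. Where a probe lies within its gene was not analysed here. Named members were those of the gene lists, the 10 largest increases and decreases in the value table, and the 4 genes inside and outside each end; those named for passing the test, Zfp949, TC1654900, 9430037G07Rik and ENSMUST00000098484 among them, and Cep162, named as a neighbour of Tbx18, were added after their values were seen. The values of 1 member are not reported here, and it was left out of the gene lists but not of the counts over the block. Members and lists were chosen with earlier results of these data known. Alternatives changed the background correction, scaling, filter, probe choice, variance model, call, replicate block and replicates.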

Additional observations from a re-analysis of the deposited data

How the results depend on the processing

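The direction of the block median held in every alternative of scaling, filter, probe choice and variance model in both forms, and the calls did not. In the scanner files the median of -0.25 ranged from -0.47 to 0.013 as single arrays were left out; in the value table that of -0.46 ranged from -0.54 to -0.42, and was -0.28 with all probes kept, -0.51 with probes well above background on all 4 arrays, and -0.25 with the scanner files in its place. Without both arrays labelled replicate 1, an alternative chosen after seeing the data, it was -0.50 in the scanner files and -0.47 in the table. Between the arrays or columns labelled replicate 2, the stretch before the block gave 0.050 (scanner) and 0.035 (table). The stretch after it gave -0.20 and -0.17, and all genes outside the block 0.011 and 0.042. Over all 4 arrays or columns, the stretch before the block gave 0.075 (scanner) and 0.097 (table). All genes outside it then gave 0.015 and 0.019, and in the table the stretch after it gave -0.18 and the rest of chromosome 9 -0.020. Limma called 8 members in the value table, where 2.7% of all kept genes were called lower and 2.17% higher. It called 0 members with all probes kept and 0 with the replicate block. The shares of all genes called in those alternatives are not given, so the loss of calls is not read as a trait of the block. From the scanner files it called 0 (0.0% of all kept genes), which became 8 with the value table. With no limit on the fold 24 members passed in the value table, where 6.51% of all kept genes passed as lower and 6.12% as higher. The cause of these changes was not tested.

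The labels do not say what a replicate number marks. Deviations of same-numbered samples correlated at 0.57 in the scanner files and 0.056 in the value table over 24453 probes, with 2 pairs, too few to settle a pairing. The scanner arrays labelled replicate 1, nearly alike, enter both deviations, so the scanner correlation cannot speak to a pairing. In this balanced design the replicate block leaves the block medians at -0.25 and -0.46 by construction and moves only the errors and calls.

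Of single members of the scanner files, Dop1a (0.043) and Tbc1d2b (-0.044) changed sign when a gene's probes were averaged, Rasgrf1 (-0.092) and Morf4l1 (0.0037) with normexp background correction, Zic4 (0.047) and Slc25a36 (0.019) with quantile normalization, and AK078587 (-1.02), Elovl4 (-0.25), Rbp2 (-0.11) and Slc25a36 (0.023) with the value table in their place. In the value table Lca5 (-0.25), Tbc1d2b (-0.30) and Tpbg (-0.14) changed sign when probes were averaged, and AK078587 (0.10), Elovl4 (2.23), Rbp2 (0.34) and Slc25a36 (-0.0073) with the scanner files. A scanner fit without an array labelled replicate 2 leans on those labelled replicate 1, whose origin could not be checked. Of the named members 35 were lower in the scanner files, and 23 (without shGR-19 replicate 2) to 36 (without shGR-19 replicate 1) as single arrays were left out. As they were left out, 21 named members crossed 0: AK078587 (-0.34 to 0.54), Rasgrf1 (-0.16 to 0.21), Zic4 (-0.25 to 0.17), Dipk2a (-1.46 to 0.11), Slc25a36 (-0.042 to 0.028), Xrn1 (-0.77 to 0.35), Rasa2 (-0.75 to 0.31), Lca5 (-0.038 to 0.14), Nmnat3 (-0.63 to 0.16), Tfdp2 (-1.05 to 0.18), Tpbg (-0.36 to 0.46), Chst2 (-1.41 to 0.38), U2surp (-0.84 to 0.17), Ibtk (-0.46 to 0.20), Pcolce2 (-0.47 to 0.13), Bckdhb (-0.059 to 0.41), Syncrip (-0.79 to 0.28), Nt5e (-2.43 to 0.42), Cyb5r4 (-0.41 to 0.060), Rnf7 (-0.58 to 0.038) and Morf4l1 (-0.21 to 0.12). As single columns of the value table were left out, 6 did: BC028807 (-0.86 to 0.99), Prss35 (-0.81 to 0.084), Slc25a36 (-0.036 to 0.082), 4930579K19Rik (-0.25 to 0.20), Tbc1d2b (-0.0041 to 0.12) and Tpbg (-0.034 to 0.10).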
